A study of Mus musculus with 8 samples.

Results

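The SR splicing factors Srsf1, Srsf2, Srsf3, Srsf4, Srsf5, Srsf6, Srsf7, Srsf9, Srsf10 and Srsf11 were followed on 8 two-colour mouse arrays. Their probes were found by matching the accession that the array design gives each probe to a RefSeq gene table. This gave 18 of 39429 probes, for 9 of the 10 genes. Srsf11 had no matched probe and was not analysed here on the arrays. Srsf1, Srsf3 and Srsf10 had 3 probes each, Srsf2, Srsf6 and Srsf7 had 2 each, and Srsf4, Srsf5 and Srsf9 had 1 each. The family was selected on the log2 differences between treated and untreated arrays of each cell line, so those values are given below as a description, with no test.

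The study set out to see how stress hormones act on pre-adipocytes and macrophages that share a culture. RNA came from 3T3-L1 cells, a mouse embryonic fibroblast line used as pre-adipocytes (spelt 3T3L-1 in the labels), and from Raw264.7 cells, a mouse macrophage line. The 2 lines were kept 48 h in transwell co-culture, and each gave 1 array for cortisol at 100 µM, 1 for serotonin at 100 µM, 1 for both hormones at 100 µM each by the labels, and 1 for untreated cells. Every group, the untreated ones included, was co-cultured, and only the harvested line was measured. The study's methods describe a separate set-up for each line, with the harvested line in the lower well and its partner in the insert. The numbers of cells seeded differed between the set-ups. The hormones were dissolved in DMSO, and no vehicle is stated for the untreated cells. Sample RNA was labelled with Cy5 and a common reference with Cy3. The labels describe the reference as an equal mix of all samples, and the study's methods as a pool of untreated cells of each line grown alone. The reference cancels in every difference given here. With 1 array per condition there is no replicate, so differences between treatments carry only the scanner software's error of each log ratio. That error covers spot and background noise and not the spread between cultures. It belongs to the software's own log ratio, while the values given here were corrected and normalised anew.

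SR proteins are nuclear RNA-binding proteins with RNA recognition motifs at one end and a region rich in arginine and serine at the other. They bind enhancer sequences in exons, bring the U1 and U2 components of the spliceosome to nearby splice sites, and so raise the use of weak exons. Several also move to the cytoplasm with messenger RNA. Phosphorylation by the SRPK and CLK kinases and import by transportin-SR set where they sit in the cell. Most SR genes carry a poison exon, whose inclusion sends their own transcript to nonsense-mediated decay, and this is a known way in which the family limits its own levels. In mouse pre-adipocyte lines Srsf10 is known for its part in adipogenic splicing.

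The start regions of Srsf7, Srsf3 and Srsf2 are shown because these 3 genes had the lowest gene means of the family on the cortisol-labelled array of 3T3-L1 cells, each 2-fold or more below untreated cells. Each is the 250 bases before the annotated start, 5′ to 3′ on the gene's strand, from RefSeq (GRCm38.p6). Capitals mark the motifs that are spelt out after the sequences.
Srsf7, chr17:80207306-80207555, minus strand: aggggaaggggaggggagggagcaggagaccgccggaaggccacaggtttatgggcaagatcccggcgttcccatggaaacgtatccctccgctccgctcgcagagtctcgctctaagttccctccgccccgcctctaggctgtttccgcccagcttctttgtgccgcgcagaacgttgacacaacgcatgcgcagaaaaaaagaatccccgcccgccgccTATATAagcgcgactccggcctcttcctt
Srsf3, chr17:29032410-29032659, plus strand: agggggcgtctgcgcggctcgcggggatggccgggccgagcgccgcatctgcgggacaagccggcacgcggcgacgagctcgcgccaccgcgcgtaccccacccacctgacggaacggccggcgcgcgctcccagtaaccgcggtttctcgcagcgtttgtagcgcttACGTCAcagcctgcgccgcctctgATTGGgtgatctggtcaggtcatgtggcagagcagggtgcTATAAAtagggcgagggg
Srsf2, chr11:116853095-116853344, minus strand: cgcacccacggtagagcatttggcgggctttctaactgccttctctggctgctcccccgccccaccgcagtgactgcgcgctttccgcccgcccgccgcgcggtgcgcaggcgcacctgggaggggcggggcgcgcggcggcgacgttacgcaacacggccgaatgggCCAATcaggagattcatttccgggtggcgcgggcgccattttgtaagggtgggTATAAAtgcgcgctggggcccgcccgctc

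All 3 windows held a TATA-like motif within 30 bases of the start. TATAAA stood 24 to 29 bases before the start in Srsf2 and 13 to 18 in Srsf3, and TATATA 24 to 29 bases before it in Srsf7. Of 32851 windows of the same length over 27025 genes, 12.4% held TATAAA and 5.25% held TATATA, anywhere in the window and on either strand. Over all members, 2 of 13 windows held TATAAA and 1 of 13 held TATATA. How often either motif stood within 30 bases of a start was not counted over all windows. CCAAT was found in Srsf2, Srsf3 and Srsf10 (33.8% of all windows), and ACGTCA, part of the cAMP-response element, in Srsf3, Srsf6 and Srsf11 (6.47% of all windows). These motifs were picked after the sequences had been read. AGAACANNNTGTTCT, a palindrome bound by the glucocorticoid receptor, stood in none of the 13 windows of the 10 genes and in 0.00913% of all windows, and its arm AGAACA stood in Srsf6 alone of the members (16.1% of all windows). TATATA and the palindrome read the same on both strands, and no 2 of the motifs found in these windows overlapped. The members' windows were 56.8% to 78.0% G and C, against a median of 52.4% over all windows. A match is a string of letters in a window and was not tied to any measurement here.

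Before the values of the family, the labels were set against well-known genes. Glucocorticoid targets went against the labels. Fkbp5, a chaperone that the glucocorticoid receptor induces, differed from untreated 3T3-L1 cells by 0.14 on the log2 scale on the array labelled cortisol, by 1.32 on the one labelled serotonin and by 1.45 on the one labelled cortisol-serotonin. Tsc22d3, which encodes the glucocorticoid-induced leucine zipper, gave -1.06, 0.41 and 0.77 on the same arrays, Zbtb16 -0.19, 1.94 and 1.96, and Per1 -0.41, 0.38 and 0.62. The median over the measured genes of a list of 22 glucocorticoid targets was -0.15, 0.57 and 0.62 in 3T3-L1 cells, and -0.18, 0.33 and 0.08 in Raw264.7 cells. When each array was centred on its median, which moves all values of 3T3-L1 cells up, the list stood 0.13, 0.74 and 0.84 above the median of all genes on the same 3T3-L1 arrays. In Raw264.7 cells, in the same order of labels, Fkbp5 gave -0.18, 0.33 and 0.01, Tsc22d3 -0.29, 0.62 and 0.52, and Per1 -0.38, 0.04 and -0.29. On cortisol-serotonin 7 of 16 listed targets were lower there. Serpina3n gave 3.22 on cortisol-serotonin in 3T3-L1 cells, and Ddit4 gave 1.74 and Lcn2 1.63 on serotonin in Raw264.7 cells. In 3T3-L1 cells the targets were thus highest on the arrays whose labels name serotonin, with or without cortisol. In Raw264.7 cells the list median was highest on the array labelled serotonin alone. Each array is called by its label throughout, without a claim about which hormone the cells received.

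The 4 arrays of 3T3-L1 cells were on 1 slide and the 4 of Raw264.7 cells on the other. Each treatment had the same position on both slides. Slide, co-culture set-up and cell line thus cannot be told apart, and neither can position and treatment. Median Cy5 signals were 62 to 79 units for 3T3-L1 cells and 51 to 103 for Raw264.7 cells over backgrounds of 26.5 to 28, and no spot was saturated. Of 12 macrophage markers, 11 had a usable probe. All 11 were above background in Raw264.7 cells, and 8 were in 3T3-L1 cells, where Spi1, Adgre1 and Cybb were not. Their summed Cy5 signal was 7348 on the array labelled cortisol, 8909 on serotonin, 6998 on cortisol-serotonin and 6520 on untreated 3T3-L1 cells, against 117498 to 206054 in Raw264.7 cells. Of 10 usable fibroblast markers 9 were above background in 3T3-L1 cells and 6 in Raw264.7 cells. Their summed Cy5 signal was 196693 to 282577 in 3T3-L1 cells and 1278 to 2496 in Raw264.7 cells. Of 5 adipocyte markers only Fabp4 was above background in 3T3-L1 cells, and Adipoq, Plin1, Cidec and Lep were not. On the scale of log2 ratios 8 macrophage markers were measured in 3T3-L1 cells. Their median differences from untreated cells were -0.12 on cortisol, -0.50 on serotonin and -0.37 on cortisol-serotonin. Of the 8 markers 6, 8 and 7 were lower, where 50.3%, 51.2% and 49.2% of all measured genes were. With median centring the markers stood at -0.08, -0.54 and -0.34 relative to the median of all genes. Without background correction the medians were 0.13, -0.13 and 0.02. With the scanner software's processed signals they were 0.19, -0.13 and -0.06, and with the Cy5 channel alone 0.17, -0.05 and -0.01. On cortisol 0 of 8 were then lower, so the direction depended on the processing. Fabp4, a fatty acid binding protein of adipocytes, differed from untreated 3T3-L1 cells by 0 on cortisol, 2.25 on serotonin and 2.46 on cortisol-serotonin. Fabp4 was above background on every Raw264.7 array too, so here it does not mark 3T3-L1 cells alone. The summed Cy5 signal of the adipocyte list was 9985 to 43691 in 3T3-L1 cells and 18164 to 46877 in Raw264.7 cells. The part of either cell type's RNA in the values of the family was not tested. In bulk RNA, fewer cells of a type and less RNA per cell cannot be told apart.

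Each of the 18 probes stood well above background for Cy5 and Cy3 alike on all 8 arrays. On the cortisol-labelled array of 3T3-L1 cells, 7 of the 18 probes were at least 2-fold lower than in untreated cells, where 1.37% of 16810 measured probes were. These 7 probes lay in Srsf7, Srsf3, Srsf2, Srsf1 and Srsf6. None of the 18 was that low on the arrays labelled serotonin (0.672% of measured probes were) or cortisol-serotonin (0.598%). None was on any treated array of Raw264.7 cells either (0.0371% to 0.253%). With shares this low, a count of 0 among 18 probes says little. Srsf7 stood lowest, 3.06-fold lower as the mean of its probes, while Srsf4, Srsf9 and one of the probes of Srsf6 differed by less than the error.

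**Figure D1:**
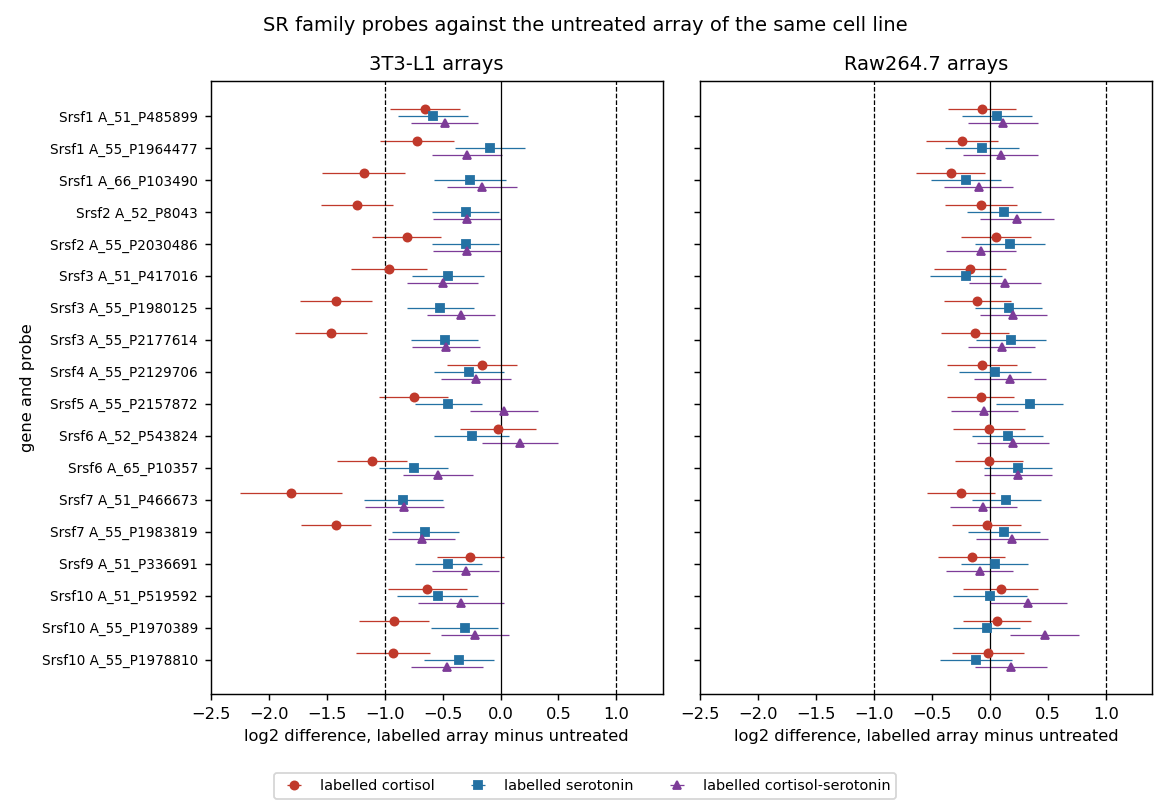
Log2 difference of each of the 18 probes between each treated array and the untreated array of its cell line, for 3T3-L1 cells on the left and Raw264.7 cells on the right. Symbols mark the label of the treated array, bars are the scanner software's error of both arrays combined, and dashed lines stand at a 2-fold difference. On the cortisol-labelled array of 3T3-L1 cells 7 probes lie past the line on the lower side (1.37% of all measured probes do). No other comparison has one there, where 0.0371% to 0.672% of all measured probes do.

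Srsf7 encodes an SR protein with a zinc knuckle that takes part in splicing, 3′ end formation and messenger RNA export. Its probe A_51_P466673 had log2 ratios to the reference of -2.66 on the array labelled cortisol, -1.68 on serotonin, -1.67 on cortisol-serotonin and -0.84 on untreated 3T3-L1 cells. In Raw264.7 cells the same probe read -0.08, 0.31, 0.11 and 0.17 in the same order of labels. The cortisol-labelled array of 3T3-L1 cells was thus the lowest of all 8, the other treated arrays of 3T3-L1 cells came next, and the Raw264.7 values stood above every 3T3-L1 value. The difference from untreated 3T3-L1 cells was -1.81 ± 0.44 (scanner error), a 3.51-fold lower ratio. This was the third lowest of the 16810 measured probes. It was visible in the raw signals, with a Cy5 signal of 107 units on the array labelled cortisol, 381 on serotonin, 327 on cortisol-serotonin and 643 on untreated cells, over Cy3 signals of 1667, 1669, 1686 and 2202 units.

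The other Srsf7 probe, A_55_P1983819, was several times brighter. Its log2 ratios were -1.01 on the array labelled cortisol, -0.24 on serotonin, -0.27 on cortisol-serotonin and 0.41 on untreated 3T3-L1 cells. In Raw264.7 cells it read 0.53, 0.67, 0.75 and 0.56 in the same order of labels. The order of the 3T3-L1 arrays was that of the first probe, with the arrays labelled serotonin and cortisol-serotonin level with each other. The difference from untreated cells was -1.42 ± 0.30 on the cortisol-labelled array, -0.65 on serotonin and -0.68 on cortisol-serotonin. Untreated 3T3-L1 cells lay within 0.14 of untreated Raw264.7 cells on this probe, and 1.01 below them on the first, so the probes disagree on the starting level while they share the order of the treatments.

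Srsf3 encodes the smallest SR protein, which acts in splicing and in messenger RNA export. Probe A_55_P2177614 read -1.45 on the array labelled cortisol, -0.47 on serotonin, -0.46 on cortisol-serotonin and 0.01 on untreated 3T3-L1 cells. Probe A_55_P1980125 read -1.36, -0.45, -0.28 and 0.06 on the same arrays. Both put the cortisol-labelled array far below the other 3, with the treated arrays next and the untreated one highest. Their differences were -1.46 ± 0.31 and -1.42 ± 0.31, which are 2.74-fold and 2.67-fold lower. The third probe, A_51_P417016, was dim, with 96 Cy5 units on the cortisol-labelled array and 257 on the untreated one. It read -0.98, -0.47, -0.52 and -0.02, and its difference of -0.96 put it just outside the 2-fold line. Its raw Cy5 signal on the cortisol-labelled array was 0.374 times that on the untreated one, against 0.339 and 0.381 for the other Srsf3 probes. The part of the background correction in its smaller difference was not tested. In Raw264.7 cells all 3 probes stayed within 0.21 of the untreated array under every label.

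**Figure D2:**
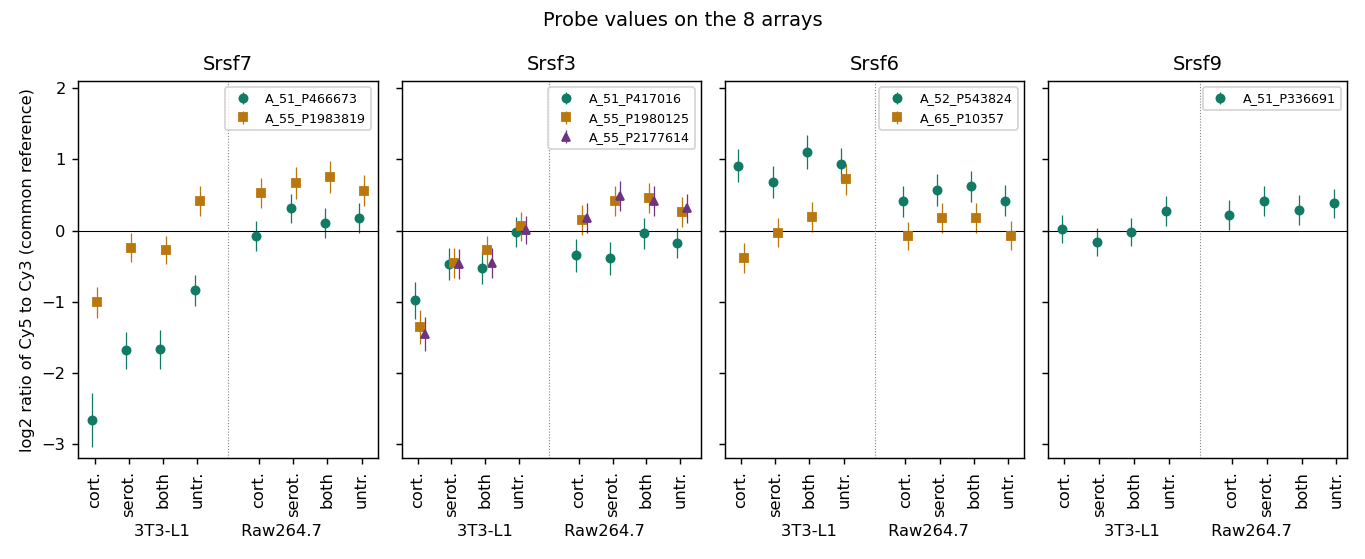
Log2 ratio of Cy5 to the Cy3 reference for the probes of Srsf7, Srsf3, Srsf6 and Srsf9 on the 8 arrays, with the arrays labelled cortisol, serotonin, both hormones and untreated given for 3T3-L1 cells and then for Raw264.7 cells. Bars are the scanner software's error. In 3T3-L1 cells the Srsf7 and Srsf3 probes are lowest on the array labelled cortisol, with the lowest Srsf7 value at -2.66, and the Srsf6 probes part from each other.

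Srsf2, or SC35, is a protein of the nuclear speckles and a general splicing activator. Probe A_52_P8043 read -1.09 on the array labelled cortisol, -0.15 on serotonin, -0.14 on cortisol-serotonin and 0.15 on untreated 3T3-L1 cells. Probe A_55_P2030486 read -0.66, -0.15, -0.14 and 0.15. The probes were level on 3 arrays and parted only on the one labelled cortisol. The difference from untreated cells was -1.24 ± 0.31 for the first and -0.81 ± 0.30 for the second, so 1 of the 2 passed the 2-fold line.

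Srsf1, also called SF2/ASF, is among the best-studied activators of exon inclusion. Probe A_66_P103490 read -1.81 on the array labelled cortisol, -0.89 on serotonin, -0.79 on cortisol-serotonin and -0.63 on untreated 3T3-L1 cells. Its difference on the cortisol-labelled array was -1.18 ± 0.36, while the other Srsf1 probes gave -0.72 and -0.65. All 3 probes were lowest on the array labelled cortisol, but they did not place the serotonin-labelled array alike, with differences of -0.26, -0.09 and -0.58.

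Srsf6 is the member whose probes disagreed most. Probe A_65_P10357 read -0.39 on the array labelled cortisol, -0.03 on serotonin, 0.19 on cortisol-serotonin and 0.72 on untreated 3T3-L1 cells, a difference of -1.11 ± 0.30 for cortisol. Probe A_52_P543824 read 0.91, 0.68, 1.1 and 0.93 on the same arrays, a difference of -0.02 ± 0.33. The brighter of them, A_65_P10357, was among the 7 past the 2-fold line, and the dimmer one did not move by more than its error under any label. Which transcript each probe sees was not analysed here, and the gene mean of -0.57 stands for neither probe.

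Srsf10 encodes a splicing repressor that is active when it loses its phosphates, as after heat shock, and an activator otherwise. Its probe A_55_P1978810 read -0.85 on the array labelled cortisol, -0.28 on serotonin, -0.38 on cortisol-serotonin and 0.08 on untreated 3T3-L1 cells. The 3 probes gave differences of -0.93 ± 0.32, -0.92 ± 0.30 and -0.63 ± 0.34 for cortisol. All were lower past the error and none reached 2-fold. Probe A_51_P519592, which gave -0.63, was dim, with 89 Cy5 units on the cortisol-labelled array and 192.5 on the untreated one. Srsf5, represented by the single probe A_55_P2157872, read -0.79 on the array labelled cortisol, -0.48 on serotonin, -0.01 on cortisol-serotonin and -0.03 on untreated cells. For this gene the cortisol-labelled array was 0.75 below the untreated one, and the cortisol-serotonin-labelled array level with it.

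Srsf9 and Srsf4 stood apart from the other genes. The dimmer Srsf6 probe, A_52_P543824, read like them, lowest in 3T3-L1 cells on the array labelled serotonin. Srsf9 had log2 ratios of 0.02 on the array labelled cortisol, -0.16 on serotonin, -0.02 on cortisol-serotonin and 0.28 on untreated 3T3-L1 cells. Srsf4 read 0.43, 0.32, 0.38 and 0.59 on the same arrays. In both genes the array labelled serotonin, and not the one labelled cortisol, was the lowest, and the differences for cortisol of -0.26 and -0.16 were smaller than their errors of 0.29 and 0.30. The 4 values of Srsf4 in 3T3-L1 cells spanned less than those of any Srsf3 or Srsf7 probe.

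Across the family, all 18 probes were below their untreated value on the cortisol-labelled array of 3T3-L1 cells, where 49.2% of measured probes were, and 15 were lower by more than the error. The share of all measured probes past the error is not given for any array. This count and the like counts below thus have no background to be read against. The values ran between -1.81 and -0.02 with a median of -0.93, against a median of 0.01 over all measured probes. Just inside the 2-fold line was Srsf6 at -1.11, and just outside it were Srsf3 at -0.96 and Srsf10 at -0.93 and -0.92. Of the 18 probes, 5 were among the 100 lowest and 13 among the 1000 lowest of 16810. The raw Cy5 signal on the cortisol-labelled array was 0.166 to 0.919 times that on the untreated array (median 0.409), and the raw Cy3 signal of the same probes 0.757 to 1.17 times (median 0.973). Over all measured probes these medians were 0.834 for Cy5 and 0.946 for Cy3. The lower ratios thus went with lower signals in the sample channel, while the reference signals of most probes were close on both arrays. With the scanner software's processed signals in place of the median signals, 11 probes were 2-fold lower, and so were 3.47% of all measured probes.

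**Figure D3:**
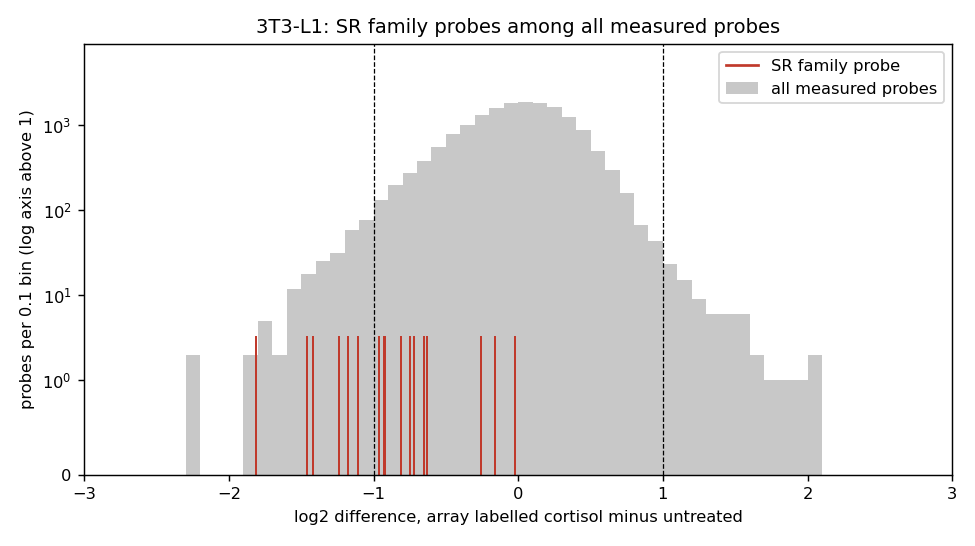
Number of measured probes in bins of the log2 difference between the cortisol-labelled and the untreated array of 3T3-L1 cells, with a log vertical axis above 1. Red marks stand at the 18 probes of the family, whose height has no meaning, and dashed lines at a 2-fold difference. The marks lie between -1.81 and -0.02, all on the lower side of 0.

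On the serotonin-labelled array of 3T3-L1 cells, no probe of the family was 2-fold lower (0.672% of 16671 measured probes were), and all 18 were below the untreated array (48.6% of measured probes), 14 of them by more than the error. The median was -0.45, with values between -0.84 for Srsf7 and -0.09 for Srsf1. On the cortisol-serotonin-labelled array none was 2-fold lower (0.598% of 16385), 16 were below the untreated array (46.3%), 11 by more than the error, and the median was -0.32. The exceptions were Srsf5 at 0.03 and the dimmer Srsf6 probe at 0.17. Srsf7 had the lowest gene mean on both arrays, -0.75 on each. The 3 comparisons share the untreated array, so a high value of that array alone would lower all of them together, and the likeness between them is not independent. The untreated array was the highest of the 4 for 16 of 18 probes, as it was for 27.4% of 15794 probes.

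The scaling bears on these directions. Centring each array on its median in place of the loess fit put the median of all measured probes at 0.60, 1.09 and 1.01 on the arrays labelled cortisol, serotonin and cortisol-serotonin, where the loess fit had 0.01, 0.01 and 0.03. The median of the family became -0.27, 0.78 and 0.76, so that the sign turned for serotonin and cortisol-serotonin. Relative to the median of all probes the family was lower under both scalings, with medians of -0.87, -0.31 and -0.25 with median centring, where 17, 18 and 16 of the 18 probes lay below that median. Counted relative to that shift, 8 probes were 2-fold lower on cortisol (1.53% of all measured probes were), 1 on serotonin (3.57%) and 0 on cortisol-serotonin (1.97%). Counted without it, 1 probe was 2-fold lower on the cortisol-labelled array (0.0773%).

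The cortisol-labelled array was the lowest of the 4 arrays of 3T3-L1 cells for 15 of 18 probes (32.9% of 15794 probes). It was also set against each of the other treated arrays. Against the serotonin-labelled array 15 probes were lower, with a median of -0.54, and 0 were 2-fold lower (1.08% of measured probes were). Against the cortisol-serotonin-labelled array 16 were lower, with a median of -0.55, and 2 were 2-fold lower (1.57% of measured probes). The family was chosen with the low values of the cortisol-labelled array in view, so these counts describe that choice, and the count of 7 probes past 2-fold was reached only against the untreated array.

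In Raw264.7 cells the family differed little between the arrays. On the cortisol-labelled array 0 probes were 2-fold lower (0.0371% of 16167 measured probes were) and 15 lower by any amount (44%), the values ran between -0.34 and 0.09, and the median was -0.07. On serotonin 0 were 2-fold lower (0.253% of 15425) and 0 were 2-fold higher (0.622%), 6 were lower by any amount (57.8%), with values between -0.21 and 0.34 and a median of 0.09. On cortisol-serotonin 0 were 2-fold lower (0.0798% of 16282) and 0 higher (0.184%), 5 were lower by any amount (51.8%), with values between -0.10 and 0.47 and a median of 0.15. With median centring the medians of the family were -0.19 on cortisol, -0.1 on serotonin and 0.03 on cortisol-serotonin, so that the sign turned for serotonin. In each of these comparisons 1 probe of 18 passed the error, namely Srsf1 A_66_P103490 at -0.34 on cortisol, Srsf5 at 0.34 on serotonin and Srsf10 A_55_P1970389 at 0.47 on cortisol-serotonin. The standard deviation over all measured probes was 0.17, 0.27 and 0.24 in these comparisons, against 0.39, 0.35 and 0.34 in 3T3-L1 cells. On the cortisol-serotonin-labelled array of Raw264.7 cells the macrophage markers Spi1 (-1.21) and Itgam (-1.05) were 2-fold lower. On the serotonin-labelled array of the same line the fibroblast marker Col3a1 was higher by 2 on the log2 scale. The part of these markers in the family's values was not tested. Whether the difference between the cell lines in the cortisol-labelled array exceeds the spread between cultures was not tested, since each line has 1 such array.

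The standard deviation over the 4 arrays of a line summarises the same contrast. It is built from the values used to choose the family, so it is a description and adds no support. It was 0.12 to 0.74 over the 18 probes in 3T3-L1 cells (median 0.39) and 0.08 to 0.23 in Raw264.7 cells (median 0.14), and larger in 3T3-L1 cells for all 18. This was so for 68.9% of 13156 probes measured on all arrays, whose median was 0.18 in 3T3-L1 cells and 0.12 in Raw264.7 cells.

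Genes that act with the SR family were read from lists of splicing factors, as gene means. Among 10991 genes measured in 3T3-L1 cells, 1.27% were at least 2-fold lower and 0.428% at least 2-fold higher on the cortisol-labelled array. Of 23 measured genes for other proteins with arginine-serine regions, 2 were 2-fold lower and 1 was 2-fold higher, 15 were lower by any amount, and the median was -0.26. The lower ones were Tra2a, a splicing activator that binds with SR proteins (-1.15), and Pnn, which encodes the speckle and desmosome protein pinin (-1.08). The higher one was Srrm2, a scaffold of nuclear speckles, at 1.29 on the array labelled cortisol, 1.39 on serotonin and 1.28 on cortisol-serotonin. In Raw264.7 cells it read -0.16, 0.75 and -0.33.

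The hnRNP proteins bind nascent transcripts and often oppose SR proteins at exons. Of 25 measured hnRNP genes 23 were lower on the array labelled cortisol, 2 of them 2-fold, and the median was -0.37. The 2 were Hnrnpm, a regulator of alternative splicing, at -1.20 and Hnrnpf, which binds runs of G, at -1.08. On the serotonin-labelled array 21 of 25 were lower (51.2% of all genes; median -0.18), and on cortisol-serotonin 17 of 24 (49.2% of all genes; median -0.10). Core spliceosome genes lay closer to 0, with 16 of 29 lower, none 2-fold changed and a median of -0.07 on the cortisol-labelled array. The median of the SR genes on the same scale was -0.83, with all 9 lower (50.3% of genes were) and 3 of them 2-fold lower, namely Srsf7, Srsf3 and Srsf2.

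The kinases and import factors of SR proteins lay on the other side. Of 9 measured, 2 were lower and 7 higher on the array labelled cortisol, with a median of 0.20 and none 2-fold changed. Of 12 genes of nonsense-mediated decay, the route that removes poison-exon transcripts, 5 were lower and 7 higher (median 0.10), and of 7 heat shock genes 4 were lower (median -0.24), none past 2-fold in either list. With median centring the list medians on this array, relative to the median of all genes, were -0.79 for the SR family, -0.21 for hnRNP genes, -0.15 for the other arginine-serine proteins and 0.34 for the kinases and import factors, while that of the core spliceosome turned to 0.16 and that of heat shock genes to 0.10. In Raw264.7 cells the list medians lay between -0.19 and 0.13 under every label. No list was tested, and the SR family was itself chosen for its low values, so its place below the other lists is a description.

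**Figure D4:**
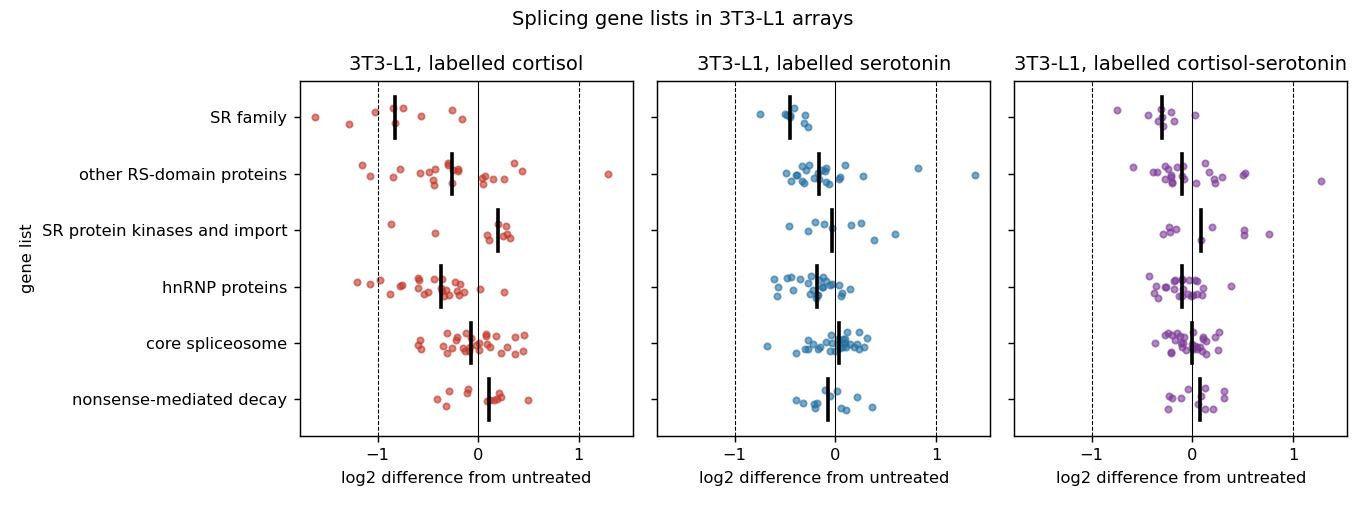
Log2 difference between each treated array and the untreated array of 3T3-L1 cells for the genes of 6 lists, 1 point per gene, with the list median as a black bar and dashed lines at a 2-fold difference. On the cortisol-labelled array the median is -0.83 for the SR family, -0.37 for hnRNP proteins and -0.07 for the core spliceosome.

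Probes with a pattern like that of Srsf7 were looked for by Pearson's r with probe A_51_P466673 over the 8 arrays, after the mean of each cell line had been subtracted. Among 13155 other probes the closest were those of Klhl9 (0.995), Zkscan1 (0.99), Azi2 (0.988), Dnaja3 (0.987) and Ipmk (0.986). On the cortisol-labelled array Klhl9 was 0.86 below untreated 3T3-L1 cells and Zkscan1 1.17 below. The other Srsf7 probe ranked 7 and Srsf3 A_55_P2177614 ranked 9, both at 0.979. Srsf3 A_55_P1980125 ranked 50, Srsf2 A_55_P2030486 ranked 59 and Srsf6 A_65_P10357 ranked 99. The other 12 probes of the family ranked between 143 and 5668, with Srsf9 at 2540 (r = 0.56), Srsf4 at 3367 (r = 0.436) and the other Srsf6 probe, A_52_P543824, at 5668 (r = 0.101). The points share the reference and, within a line, the slide, and 8 arrays of 2 lines give few independent points, so these are rankings with no test.

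The cell lines were also compared with each other, with limma over the 4 pairs of arrays and treatment as a block. All 3 treated arrays of 3T3-L1 cells, whose low values were used to choose the family, enter the mean of that line, so the comparison is not independent of the choice and its calls are given as a description. Of the 18 probes, 13 were lower in 3T3-L1 than in Raw264.7 cells at an adjusted p under 0.05, and 35.7% of 13156 probes were. A single probe, Srsf6 A_52_P543824, was higher, as were 37.9% of all probes. With the Cy5 channel alone 9 were lower (32.6% of 14025 probes), and Srsf3 A_55_P1980125 (0.69) and Srsf7 A_55_P1983819 (0.44) turned sign without passing the test. The median difference was -0.69 over the family and 0.04 over all probes.

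Srsf7 A_51_P466673 had the largest difference among the 18 probes. It averaged -1.71 ± 0.74 in 3T3-L1 cells and 0.13 ± 0.16 in Raw264.7 cells (SD, n = 4 arrays each), a log2 difference of -1.84 ± 0.20 (SE) and 3.58-fold lower. It was lower in all 4 pairs, which ran between -2.58 and -1.01. The 3 probes of Srsf1 were lower by 1.02, 1.02 and 1.31 on the log2 scale, and those of Srsf2 by 1.09 and 0.76, also in every pair. Srsf9 was the least of the 13, at -0.30.

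Srsf6 A_52_P543824 averaged 0.90 ± 0.17 in 3T3-L1 cells and 0.51 ± 0.11 in Raw264.7 cells (SD, n = 4 arrays each), a difference of 0.40 ± 0.12 (SE). The remaining 4 probes did not pass. Their 95% confidence intervals were -0.58 to 0.06 for Srsf3 A_51_P417016, -0.40 to 0.11 for Srsf4, -0.70 to 0.01 for Srsf5 and -0.30 to 0.45 for Srsf6 A_65_P10357.

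**Figure D5:**
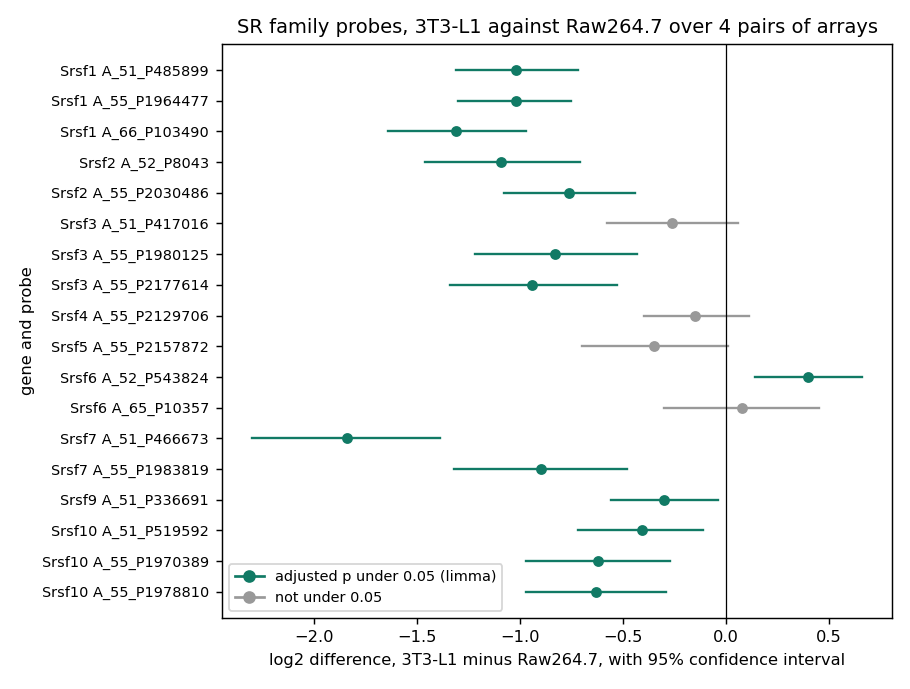
Log2 difference of each of the 18 probes between 3T3-L1 and Raw264.7 cells over 4 pairs of arrays, with its 95% confidence interval from limma. Green points have an adjusted p under 0.05, of which 13 lie on the side lower in 3T3-L1 cells and 1 on the higher side.

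Without the arrays labelled cortisol, 11 of the 18 probes were lower at the same threshold (33.3% of 13454 probes), and Srsf9 and Srsf10 A_51_P519592 were not among them. The arrays labelled serotonin and cortisol-serotonin, also used in the choice, remain in that count. In the untreated pair alone, which holds no treated array and allows no test, 12 of 18 probes were lower in 3T3-L1 cells and 49.7% of all probes were, and 2 were at least 2-fold lower, as were 16.1% of all probes. The median of the untreated pair was -0.16 over the family, against -0.69 with all 4 pairs. Untreated 3T3-L1 cells were 1.01 below untreated Raw264.7 cells on Srsf7 A_51_P466673 and 1.07 below on Srsf1 A_66_P103490, whereas the Srsf3 probes lay between -0.30 and 0.16. The Srsf7 probe A_55_P1983819 was 0.14 below.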

How the data were processed

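RNA of 8 co-cultured samples was hybridised to Agilent mouse arrays. The authors scanned them with Agilent Feature Extraction (10.5.1.1 per the labels and file headers, which is not the version in the study's methods). The scanner files deposited by the authors hold intensities, namely each spot's median signal and background per dye, not normalised across arrays, and the software's processed signal. They also hold, as deposited, its log10 ratio of Cy5 to Cy3, and score values from the software, namely the error of that ratio and marks for background, saturation and outliers. The deposited series matrix holds the same log10 ratio within 0.005. Only median signals were given, and these were used. Median signals were background-corrected by normexp with offset 50, and a loess fit per array (limma 3.58.1, R 4.3.3) gave normalised log2 ratios, without control or outlier-flagged spots. The 43020 spots were averaged to 39429 probes. Through RefSeq names 27508 probes (69.8%) matched 20886 genes. A probe counted as measured when Cy5 and Cy3 were both well above background on each array of a comparison. The number of arrays limits the precision.

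Each treated array was compared with the untreated array of its line (6 comparisons), at a 2-fold threshold. The cell lines were compared with limma and Benjamini-Hochberg adjustment over 13156 probes, and that step was tested on simulated data. The simulated noise was independent and of a single spread. It thus does not cover slide effects or a spread that differs between the lines. Nothing says that the arrays of a line came from independent experiments, so the p-values of this comparison measure only the spread between these arrays. The members and the gene lists were chosen with earlier results of these data known. Named were all members, up to 4 genes of each other list past 2-fold, the 5 probes most like Srsf7, and Fkbp5, Tsc22d3, Zbtb16 and Per1. Alternatives changed the background correction, normalization, filter, signals, block and arrays.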

Additional observations from a re-analysis of the deposited data

How the results depend on the processing

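The count of 7 probes 2-fold lower in 3T3-L1 cells on the cortisol-labelled array became 11 with the scanner software's processed signals, 11 with the series matrix, which holds the same ratios, and 1 with median centring, while the share of all measured probes, 1.37%, became 3.47%, 3.46% and 0.0773%. With the array labelled serotonin as its baseline the count was 0, and with that labelled cortisol-serotonin it was 2; both baselines were chosen after seeing the data. For serotonin and for cortisol-serotonin in 3T3-L1 cells the count of 0 lower became 1 on each with processed signals (1.78% and 1.59% of measured probes). It was also 1 on each with the series matrix (1.78% and 1.59%) and with Cy5 alone, quantile normalised (1.46% and 1.25%). The count of 0 higher became 2 on each with median centring, where the median of all measured probes stood at 1.09 and 1.01. With Cy5 alone Raw264.7 cells had 1 probe 2-fold higher on serotonin and 2 on cortisol-serotonin. The share of all measured probes that were 2-fold higher is not given for these settings. These counts of higher probes thus have no background to be read against.

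The count of probes lower in 3T3-L1 than in Raw264.7 cells was 13 (35.7% of all probes). It ran between 11 and 14 when 1 pair of arrays was left out (33.2% to 33.8%), and was 9 with Cy5 alone (32.6%). The 1 higher probe, Srsf6 A_52_P543824, became 0 with median centring (2282 of 13156 probes were higher) and 0 with Cy5 alone (3775 of 14025). With Cy5 alone, which does not use the reference, Srsf3 A_55_P1980125 turned to 0.69 (limma, adjusted p = 0.0815) and Srsf7 A_55_P1983819 to 0.44 (limma, adjusted p = 0.238). The raw Cy3 signal of the reference on this Srsf3 probe was 14800.5 to 17452 units in 3T3-L1 cells. In Raw264.7 cells it was 14280 on cortisol-serotonin and 2744 to 4516 on the other arrays. On this Srsf7 probe it was 9848 to 13691 in 3T3-L1 cells. In Raw264.7 cells it was 10014 on cortisol-serotonin and 2242 to 3915 on the other arrays. The part of these signals in the turned signs was not tested. Of the other recomputed values of single probes between the lines, 177 kept their side of the threshold, 14 lost it and 5 gained it, with Srsf9 the probe that lost it most often. The labels give no replicate numbers. The fit between the lines pairs the arrays by treatment. Without that block its counts were 13 lower (36.3% of all probes) and 1 higher (5061 of 13156 probes). The dimmest probes, nearest to background, were Srsf10 A_51_P519592 and Srsf3 A_51_P417016.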
